A study of Homo sapiens with 8 samples.

Results

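The genes of DNA replication origins and forks were described across 8 two-colour oligonucleotide arrays of 1 slide. The list was given by gene symbol and holds 47 genes of the 43317 that the array design names, and each of the 47 had a probe. The list covers 11 genes of origin licensing, 7 of helicase activation, 7 of the polymerases and primase, 8 of the sliding clamp, clamp loader and Okazaki fragments, 5 of nucleotide supply and 9 of fork protection and replication-coupled chromatin. On each array the Cy3 channel held RNA of mock cells, which the labels describe as not transfected, and the Cy5 channel held RNA of the same cell line after transfection with Lipofectamine RNAiMAX. PC3 cells (prostate cancer) received either strand of miR-150 (miR-150-5p or miR-150-3p), miR-99a-3p or else miR-100-3p. FaDu cells (hypopharyngeal squamous cell carcinoma) received the 5p or the 3p strand of miR-99a, and PANC-1 cells (pancreatic cancer) received si-FOXQ1-1 or si-FOXQ1-2, which target the transcription factor gene FOXQ1. Each condition had 1 array, no dyes were swapped and no cells with a control miRNA were analysed here, so the effects of the dyes, of transfection as such and of the transfected RNA cannot be told apart, and no test was run on a ratio of transfected over mock cells.

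Replication starts when the origin recognition complex, CDC6 and CDT1 load the ring of MCM2 to MCM7 onto DNA in G1 phase. In S phase the kinase partner DBF4, MCM10, CDC45 and the GINS complex turn the loaded ring into a moving helicase. Primase and the polymerases alpha, delta and epsilon then copy the strands, with PCNA as the clamp that holds polymerases and its partners on DNA. Most of these genes are transcribed under the control of E2F factors, so that their RNA is plentiful in cycling cells and scarce in resting ones. In bulk RNA, fewer cells in S phase and less RNA of these genes per cell cannot be told apart.

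The values are the log2 ratio of Cy5 over Cy3 of the brightest probe of a gene, so that a value of −1 is a 2-fold lower signal in transfected cells. The spot error that the scanner software gives to a ratio is written after it; it is a technical error and leaves out the variation between cultures. Detection required a signal well above background in Cy3, Cy5 or both. Between 19184 and 20919 genes passed on an array, and all 47 replication genes passed on every array. Over all detected genes the median log2 ratio lay between −0.04 and 0.02. The ratios of spike-in controls had a slope of 0.882 to 0.900 on their expected values, so ratios are compressed. The number of arrays limits the precision. FOXQ1 was lower under both siRNAs in PANC-1 cells, with signals of 4890 and 1090 (log2 ratio −2.16, spot error 0.29) under si-FOXQ1-1 and 4560 and 1050 (−2.12, spot error 0.28) under si-FOXQ1-2. Squamous markers separated the lines by their mock signal: TP63, KRT5, KRT14, DSG3 and KRT17 were above background in both FaDu mock channels and in no PC3 or PANC-1 mock channel. The squamous marker SFN was above background in every mock channel of the 3 lines, and KRT6A in both FaDu and in 2 PC3 channels. HOXB13, a prostate homeobox gene, was bright in the PC3 channels, whereas KLK3 (prostate-specific antigen) was not above background in any line. Other prostate markers did not single out PC3. FOLH1 was above background in both FaDu and in 2 PC3 channels, with a higher mean level in FaDu. KLK2 was above background in all PC3 and both FaDu channels, and TMPRSS2 in all PC3 and both PANC-1 channels. The pancreatic genes PDX1 and CFTR were not above background in PANC-1. The other duct markers, KRT7, KRT19, SOX9, MUC1 and GATA6, were above background in both PANC-1 mock channels, as they were in all PC3 and FaDu mock channels.

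The 4 PC3 mock channels stood apart as 2 pairs, which matters for every PC3 ratio below. The SD over genes of the log2 difference between mock channels was 0.158 between the miR-150-5p and miR-150-3p arrays and 0.170 between the miR-99a-3p and miR-100-3p arrays, against 0.257 to 0.259 between arrays of different pairs. The cadherin gene CDH1 was higher by 1.75 on the log2 scale in the mock cells of the miR-150 arrays. The labels do not name separate cultures. The FaDu mock channels (SD 0.186) and the PANC-1 mock channels (SD 0.165) differed about as little as the channels within a PC3 pair, so each pair may be 1 RNA hybridised to several arrays, and arrays of a pair may share their control.

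The transfected miRNAs are shown here because strands of 1 hairpin, and a relative of the 3p strand, gave different values for the replication genes. The mature sequences are those of RefSeq on GRCh38.p14, 5′ to 3′, with the seed (bases 2 to 8) in capitals. miR-99a-5p and miR-99a-3p come from MIR99A, at chr21:16539101-16539122 and chr21:16539138-16539159 on the plus strand, and miR-100-3p comes from MIR100, at chr11:122152240-122152261 on the minus strand.
miR-99a-5p: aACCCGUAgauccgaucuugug
miR-99a-3p: cAAGCUCGcuucuaugggucug
miR-100-3p: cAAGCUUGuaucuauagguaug
Counted from the 5′ end, miR-99a-3p and miR-100-3p have the same base at 17 of 22 positions. Of the 5 differences, 1 lies in the seed (C7U, miR-99a-3p first), so 6 of 7 seed bases are shared. The strands miR-99a-5p and miR-99a-3p have unrelated seeds, and the strands of miR-150 are named only.

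All 47 replication genes had a lower signal in PC3 cells with miR-99a-3p than in the mock cells, as did 10034 of 20545 detected genes. The median log2 ratio of the 47 was −1.84, with quartiles at −2.55 and −1.48, against a median of 0.02 over all 20545 detected genes. At or below −1 lay 43 of the 47, against 7.39% of all detected genes. No replication gene was at or above 1, where 4.23% of all detected genes lay. Cy5 was not well above background for 5 of them (ORC1, CDC6, MCM10, RFC3 and CLSPN), which are given as bounds, and with these at their bounds 42 of 47 lay at or below −1. MCM4, RRM2 and PRIM1 belong to a list that the study chose on this array, so their values here are not independent of that choice. Epithelial markers moved on the same array. Of 7 duct markers, KRT7 (−1.12) and KRT19 (−1.06) were lower and GATA6 (1.04) was higher. SOX9 (−0.08) and MUC1 (−0.24) changed little, and PDX1 and CFTR were above background in neither channel. The summed signal of the list was 216000 in mock and 104000 in transfected cells, of which KRT19 alone gave 186000 and 88800. The 4 general epithelial markers had summed signals of 51100 and 35200, with EPCAM at −0.65 and CDH1 at 0.85. The part of these shifts in the replication gene values was not tested.

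**Figure D1:**
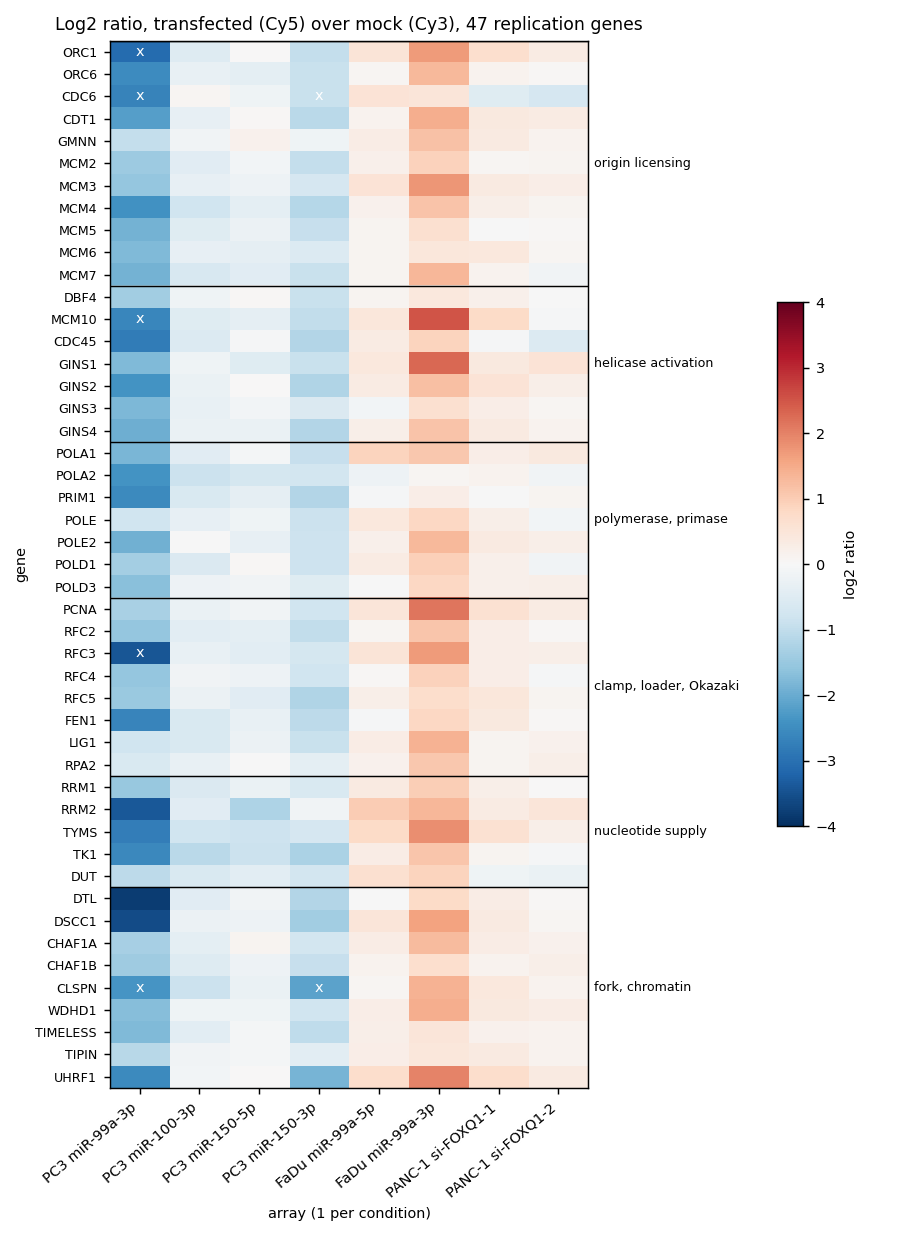
Log2 ratio of transfected over mock cells for the 47 replication genes (rows, grouped by role) on the 8 arrays (columns), from blue (lower in transfected cells) to red (higher). A white x marks a gene whose Cy5 signal was not well above background. The PC3 miR-99a-3p column is blue throughout (median −1.84) and the FaDu miR-99a-3p column is red throughout (median 1.10).

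Among the licensing genes, ORC6, a subunit of the origin recognition complex, had the lowest ratio measured in both channels, with a signal of 659 in mock and 114 in PC3 cells with miR-99a-3p (log2 ratio −2.53, spot error 0.32). ORC1, the large subunit, had 214 in mock cells and no signal well above background after transfection, a decrease of at least 4.66-fold. The loading factor CDT1 had 1670 and 365 (−2.19, spot error 0.29). Geminin (GMNN), the inhibitor of CDT1, stood at the other end of the group with 4020 and 2080 (−0.95, spot error 0.22), so CDT1 and its inhibitor differed by more than their spot errors. The 6 subunits of the MCM ring ranged from −1.46 (MCM2, spot error 0.24) to −2.42 (MCM4, spot error 0.30). MCM7, the brightest of them, went from 39700 to 10700 (−1.89, spot error 0.27). For the loader CDC6 the mock signal of 56.9 was close to background and allows a decrease of at least 1.24-fold.

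Each of the 7 helicase activation genes lay at or below −1 in PC3 cells with miR-99a-3p. CDC45, which joins the MCM ring and GINS into the active helicase, had the lowest measured ratio, from 4720 to 677 (−2.80, spot error 0.33). The GINS subunits had −1.76 (GINS1), −2.39 (GINS2), −1.81 (GINS3) and −1.95 (GINS4). DBF4, the activating partner of the kinase CDC7, had the highest ratio of the group, −1.40 (spot error 0.25). MCM10 had 174 in mock cells and was at least 3.80-fold lower. Of the polymerases and primase, PRIM1, the catalytic primase subunit, was at −2.56 (spot error 0.32, from 1180 to 201) and POLA2, a subunit of the same complex, at −2.38 (spot error 0.30). POLE, the catalytic subunit of the leading-strand polymerase, was the highest of its group at −0.81 (spot error 0.24), whereas its partner POLE2 was at −1.93 (spot error 0.28). A dimmer probe of POLE, with Cy5 not well above background, read −1.52.

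At the clamp and on the lagging strand the values spread widely in the same cells. FEN1, the nuclease that trims Okazaki fragments, went from 1610 to 257 (−2.64, spot error 0.32), whereas LIG1, the ligase that joins them, went from 2600 to 1500 (−0.79, spot error 0.22). RPA2, a subunit of the single-strand binding protein, had the smallest decrease of the genes measured in both channels (−0.60, spot error 0.21, from 5280 to 3490). PCNA had −1.30 (spot error 0.24). Of the clamp loader, RFC2, RFC4 and RFC5 lay together between −1.54 and −1.49, and RFC3 was at least 7.66-fold lower with Cy5 not well above background. A dimmer probe of RFC3, also not well above background in Cy5, read −2.15.

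The genes of nucleotide supply held some of the largest decreases. RRM2, the small subunit of ribonucleotide reductase, which cycles with S phase, had 884 in mock and 84.6 in transfected PC3 cells (−3.39, spot error 0.38). RRM1, the large subunit, had −1.51 (spot error 0.25). Thymidylate synthase (TYMS) went from 31800 to 4700 (−2.76, spot error 0.33) and thymidine kinase (TK1) from 141000 to 23600 (−2.58, spot error 0.31). DUT, which removes dUTP, had the highest ratio of the group (−1.05, spot error 0.23). Among the fork and chromatin genes, DTL, the substrate receptor of the ubiquitin ligase that removes CDT1 at PCNA, had the lowest ratio measured in both channels, from 1730 to 124 (−3.80, spot error 0.41). DSCC1, of the clamp loader used in cohesion, followed with 906 and 75.8 (−3.58, spot error 0.40), which the errors do not separate from DTL or RRM2. UHRF1, which guides maintenance of DNA methylation, had −2.54 (spot error 0.31). TIPIN had the highest ratio of the group (−1.10, spot error 0.23), and its partner TIMELESS had −1.77 (spot error 0.26).

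In FaDu cells with the same strand, every one of the 47 genes had a higher signal than in the mock cells by its brightest probe. Of all detected genes, 47.8% did. The dimmer probe of POLE went the other way, at −0.30 (spot error 0.35) against 0.83 for the brightest, with both channels above background. The median log2 ratio of the 47 was 1.10, with quartiles at 0.80 and 1.38, against −0.03 over all 19184 detected genes. At or above 1 lay 26 of the 47, against 8.25% of all detected genes, and none was at or below −1, where 9.37% of all detected genes lay. For 46 of the 47 the ratio was above its own spot error, against 33.6% of all detected genes. POLA2 (0.09, spot error 0.22) was the exception. All 47 were above background in both channels. The difference between PC3 and FaDu cells rests on 1 array per line and was not tested.

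**Figure D2:**
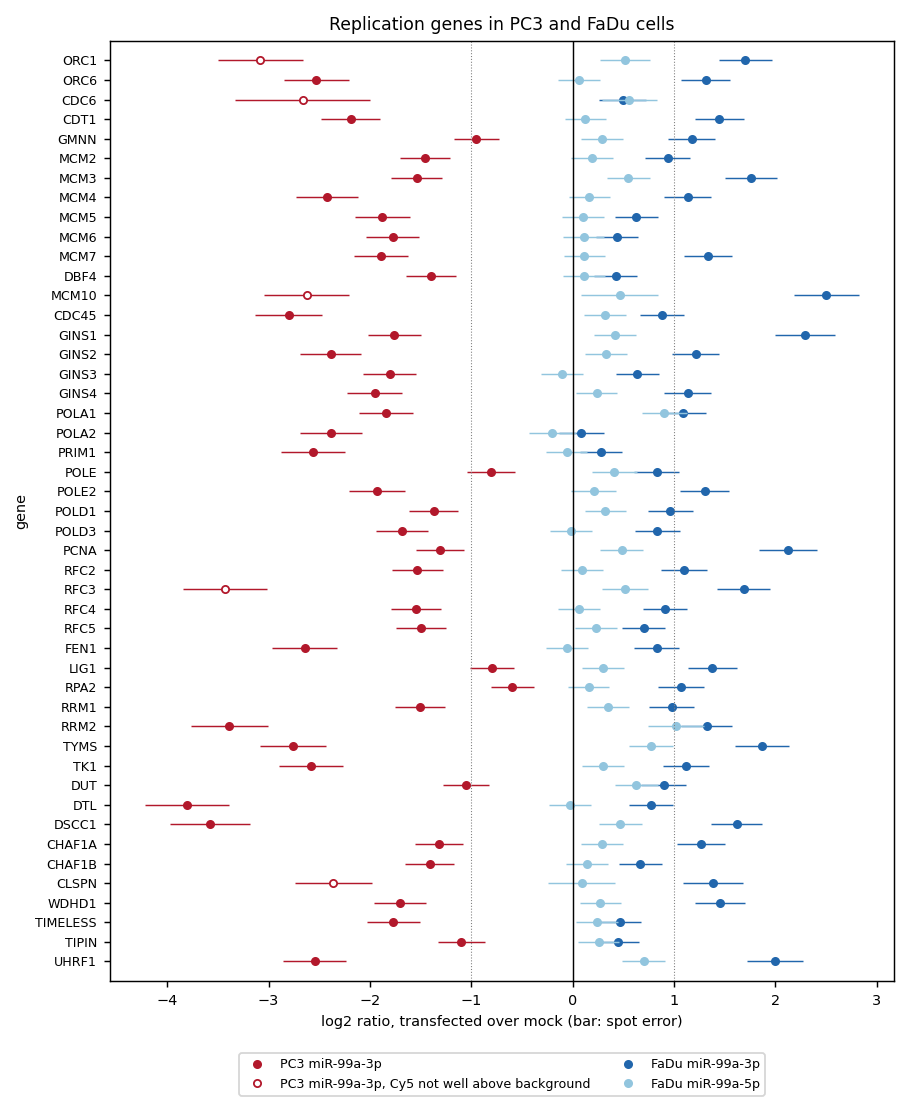
Log2 ratio (horizontal axis, with the spot error as a bar) of each replication gene (vertical axis) in PC3 cells with miR-99a-3p (red), FaDu cells with miR-99a-3p (dark blue) and FaDu cells with miR-99a-5p (light blue). Open circles have a Cy5 signal not well above background, and dotted lines mark −1 and 1. All red points lie at or below −0.60 and all dark blue points at or above 0.09.

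The order of the genes in FaDu cells with miR-99a-3p differed in part from that in PC3 cells. TYMS (−2.76 in PC3 and 1.87 in FaDu) and DSCC1 (−3.58 and 1.62) lay beyond the outer quartile on both arrays. DBF4, DUT and TIPIN changed least in their role groups in both lines. MCM10 had the highest ratio, from 99.7 to 565 (2.50, spot error 0.32), and GINS1 followed, from 1460 to 7170 (2.29, spot error 0.29). DBF4 was the lowest helicase activation gene at 0.43 (spot error 0.21). PCNA, among the smaller decreases in PC3, had one of the largest increases here, from 1610 to 7040 (2.13, spot error 0.28), and its dimmer probe read 2.15. RFC5 was the lowest gene of the clamp and Okazaki group at 0.70 (spot error 0.21). DTL, the lowest measured in both channels in PC3, was near the lower end in FaDu at 0.77 (spot error 0.22). Of the licensing genes MCM3 had the highest ratio, from 6060 to 20500 (1.76, spot error 0.26), and MCM6 the lowest (0.44, spot error 0.21), so members of 1 ring differed by more than their spot errors. CDT1 (1.45, spot error 0.24) and geminin (1.17, spot error 0.23) had overlapping errors.

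POLE2 had the highest ratio of the polymerase genes (1.30, spot error 0.24), and the primase genes POLA2 and PRIM1 (0.28, spot error 0.21) the lowest. TYMS led nucleotide supply, from 2470 to 9020 (1.87, spot error 0.27), and DUT was its lowest member (0.90, spot error 0.22). RRM2 was dim in FaDu mock cells, at 168, and 421 after transfection (1.32, spot error 0.25). UHRF1 led the fork and chromatin genes, from 924 to 3680 (2.00, spot error 0.28), with TIPIN the lowest (0.45, spot error 0.21).

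Markers of cell identity moved on the FaDu miR-99a-3p array as well. All 7 squamous markers had a ratio below 0, from −0.35 (SFN) to −2.83 (KRT6A, a keratin of stratified epithelia), and their summed signal was 387000 in mock and 168000 in transfected cells. Under miR-99a-5p their summed signal was 225000 in mock and 210000 in transfected cells. Of the prostate markers given here, FOLH1 (1.14) and HOXB13 (2.23) were above background in both channels, KLK2 in Cy3 alone, and KLK3 and TMPRSS2 in neither. The part of these shifts in the replication gene values was not tested.

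The guide strand miR-99a-5p gave FaDu cells smaller values. The median of the 47 genes was 0.26. Above 0 were 41, against 45.6% of all detected genes, and 27 by more than their spot error, against 19.1%. RRM2 alone was at or above 1 (1.02, spot error 0.28), where 0.851% of all detected genes lay, and no gene was at or below −1, against 4.86% of all. With normexp and loess, and against the mean mock channel of the line, 0 genes were at or above 1. POLA1, the catalytic subunit of polymerase alpha, had 0.91, TYMS 0.77 and UHRF1 0.70. The lowest value was that of POLA2 (−0.20, spot error 0.23). CDC6 was the only gene of the 47 whose ratio was not higher under the 3p strand, with 0.56 for the 5p strand and 0.49 for the 3p strand, a difference within the spot errors. These arrays may share 1 mock RNA.

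In PC3 cells with miR-150-3p, the median of the 47 genes was −0.88, between that of miR-99a-3p and those of miR-150-5p and miR-100-3p. All were below 0, against 10756 of 20815 detected genes, and 45 by more than their spot error, against 30.5%. At or below −1 lay 14 of the 47, against 6.68% of all detected genes, and none was at or above 1, against 2.69% of all. The lowest values were those of genes in the fork and chromatin group. CLSPN (claspin, which links forks to the checkpoint kinase) was at least 4.44-fold lower, with Cy5 not well above background, UHRF1 was at −1.86 (spot error 0.27) and DSCC1 at −1.38 (spot error 0.24). RRM2, among the lowest under miR-99a-3p, was the highest measured in both channels here (−0.15, spot error 0.21), and geminin was close to it (−0.16, spot error 0.20). TK1 (−1.26) was the lowest gene of nucleotide supply, MCM4 (−1.13) of licensing, GINS2 (−1.20) of helicase activation, PRIM1 (−1.18) of the polymerases and RFC5 (−1.20) of the clamp and Okazaki group. Against the mean mock channel of the line, 8 genes lay at or below −1. After normexp, loess and Aquantile normalization between channels, the median was −0.78 with 13 genes at or below −1 against the mean of the array's own pair of mock channels, and −0.60 with 4 genes against that of the other pair.

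With miR-150-5p the median was −0.21, and 25 of the 47 were below 0 by more than their spot error while none was above 0 by more than it, against 24.3% and 21.6% of all detected genes. After the same normalization this median was −0.22 against its own pair of mock channels and 0.029 against the other pair, so its sign differed between the controls. RRM2 (−1.23, spot error 0.24) was the only gene at or below −1, where 4.49% of all detected genes lay, and 0 genes were there against the mean mock channel of the line or against the other pair. It was followed by TK1 (−0.86) and TYMS (−0.84), so nucleotide supply held the lowest values. No gene was at or above 1, against 0.664% of all. The highest value was that of geminin (0.17, spot error 0.20). RRM2 therefore stood at opposite ends of the 47 genes under the strands of miR-150, at −1.23 under miR-150-5p and −0.15 under miR-150-3p.

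With miR-100-3p, which shares all but 1 seed base with miR-99a-3p, the median was −0.38. Below 0 were 46 of the 47, against 10662 of 20273 detected genes, and 38 by more than their spot error, against 24.8%. TK1 alone was at or below −1 (−1.08, spot error 0.23), against 3.34% of all detected genes, and none was at or above 1, against 0.987% of all. The number at or below −1 was 0 with normexp and loess and against its own pair of mock channels, and 2 with the dimmest probe and against the other pair. The other low values were those of CLSPN (−0.87), POLA2 (−0.85), MCM4 (−0.81) and TYMS (−0.80). CDC6 was the exception in sign (0.08, spot error 0.38). POLE and LIG1 had lower values under miR-150-3p (−0.85 and −0.88) than under miR-99a-3p, by less than their spot errors.

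In PANC-1 cells most replication genes had small ratios above 0 under both siRNAs. Under si-FOXQ1-1 the median was 0.27, 42 of the 47 were above 0 (46.5% of all detected genes) and 31 by more than their spot error (18.6% of all). In the same cells no gene was at or below −1 (3.31% of all detected genes) and none at or above 1 (0.905% of all). Under si-FOXQ1-2 the median was 0.12, 36 were above 0 (47.9% of all) and 16 by more than their spot error (16.9% of all), again with no gene at or below −1 (3.29% of all) or at or above 1 (0.412% of all). CDC6 went against the other genes, with −0.48 (spot error 0.30) under si-FOXQ1-1 and −0.69 (spot error 0.29) under si-FOXQ1-2. Its mock and transfected signals were low, 55.0 and 39.4 under si-FOXQ1-1 and 59.7 and 37.1 under si-FOXQ1-2. The lowest Cy5 signals well above background were 32.5 and 27.9 on these arrays. CDC45 (−0.54, spot error 0.21) and DUT (−0.27, spot error 0.20) also went against the other genes under si-FOXQ1-2. The highest values were those of MCM10 (0.77) and UHRF1 (0.71) under si-FOXQ1-1 and of GINS1 (0.53) under si-FOXQ1-2. MCM10 was at −0.05 under si-FOXQ1-2. The siRNAs share a target, and their arrays may share 1 mock RNA.

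Neighbouring gene lists give these values a frame. Of 41 other replication and repair genes, which include subunits made throughout the cell cycle, 19 lay at or below −1 in PC3 cells with miR-99a-3p. The median of this list was −0.96, and 7.39% of all detected genes lay at or below −1. The histone chaperone ASF1B (−2.24, spot error 0.29) and the kinase CDC7 (−2.21, spot error 0.30) were the lowest of those measured in both channels. At the upper end stood RRM2B, the reductase subunit induced by p53 (0.64, spot error 0.22), and TONSL (0.16, spot error 0.20). RRM2B and RRM2 thus had opposite signs in these cells. In FaDu cells with miR-99a-3p the same list had a median of 0.57. At or above 1 lay 7 of its genes, against 8.25% of all detected genes. It ranged from POLD4 (−0.89, spot error 0.22) and RFC1 (−0.55) to ATAD5 (1.44) and TICRR (1.53, spot error 0.25).

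The 28 mitotic genes had medians of −2.02 in PC3 and 0.88 in FaDu cells with miR-99a-3p, with 27 at or below −1 and 9 at or above 1, respectively. Of all detected genes, 7.39% and 8.25% lay there. In PC3 the mitotic kinase CDK1 (−3.03, spot error 0.35) and UBE2C (−2.96, spot error 0.34) were lowest and PLK1 (−1.18) and ECT2 (−0.93, spot error 0.23) highest. CDK1 belongs to the list that the study chose on this PC3 array, so its value is not independent of that choice. In FaDu, CDC25C (0.04, spot error 0.21) and PTTG1 (0.44) were lowest and AURKB (1.55) and HMMR (1.57, spot error 0.25) highest. The replication and mitotic lists thus had medians of the same sign on both arrays. Of 22 E2F family members and S-phase regulators, 10 lay at or below −1 in PC3 (7.39% of all detected genes), with a median of −0.80. In FaDu, 8 lay at or above 1 (8.25% of all), with a median of 0.79. E2F2, an activating E2F, was the lowest in PC3 (−3.08, spot error 0.35) and the highest in FaDu (2.39, spot error 0.30). CCNE2 (cyclin E2) was at −2.60 in PC3, and E2F8 at 2.33 in FaDu. At the opposite ends, CDKN1B (p27) was at 0.67 and E2F6 at 0.59 in PC3, and CDKN1A (p21) at −1.08 and RBL2 at −0.36 in FaDu.

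**Figure D3:**
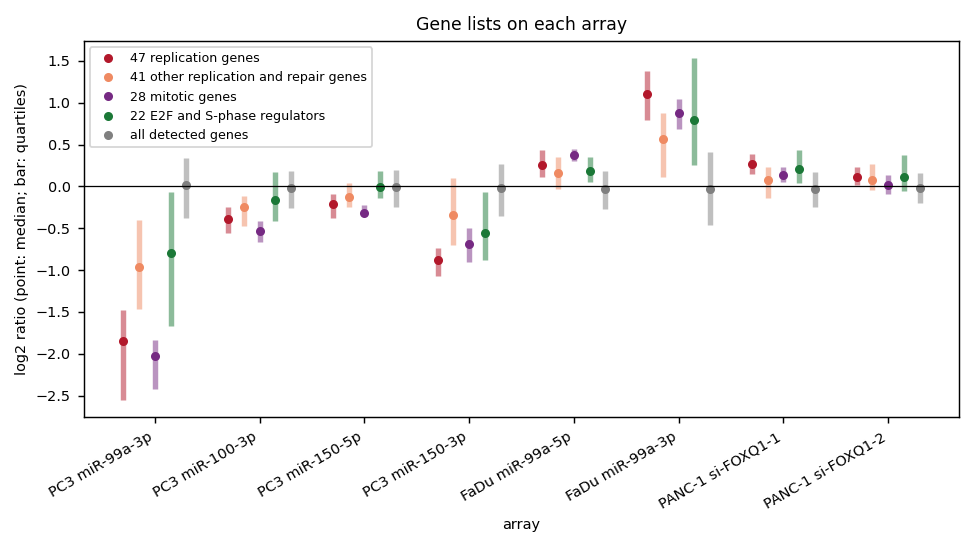
Median (points) and quartiles (bars) of the log2 ratio of transfected over mock cells for 5 gene lists (colours) on the 8 arrays (horizontal axis). The medians of the 47 replication genes and of the mitotic genes lie on the same side of 0 on every array, of −1.84 and −2.02 in PC3 and 1.10 and 0.88 in FaDu cells with miR-99a-3p, and all detected genes lie near 0 throughout.

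Promoters were examined for letters that the list did not use. Most of these genes are known to be under E2F control. A high share of E2F-type letters could therefore be foreseen from the list and is no result of the arrays. The shares are set against promoters of all genes, expressed or not. RefSeq windows of 300 bases on GRCh38.p14, from 250 bases before to 50 after the gene start, were present for 41 of the 47. The E2F-type motifs TTTCCCGC, TTTCGCGC, TTTGCCGC and TTTGGCGC were searched on both strands, with overlapping matches counted as 1. A match was found in 20 of 41 (48.8%), against 908 of 27305 promoters of all genes (3.33%). The letters CCAAT, a motif known from mitotic promoters, were found on either strand in 23 of 41 (56.1%), against 35.7% of all promoters and 19 of 23 mitotic ones (82.6%). E2F-type matches were found in 3 of 23 mitotic promoters (13.0%). Of the other replication genes 6 of 32 had one (18.8%), and of the E2F and S-phase regulators 6 of 16 (37.5%). The replication and mitotic lists thus differed in the shares of promoters with these letters, and a link of these shares to their ratios was not tested.

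The windows below are from genes that, of those with a match in their role group, had the lowest ratios measured in both channels in PC3 cells with miR-99a-3p. GINS3, POLE2 and LIG1, the next lowest with a match in their groups, are not shown. Each is given 5′ to 3′ on the strand of the gene with the matching letters in capitals, so that a match on the opposite strand reads as the reverse complement.
CDT1: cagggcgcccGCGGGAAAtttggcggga
MCM7: gggggcgacgTTTCGCGCcaatttcggt
GINS2: tctcgccgtgGCGGGAAAacggcggccg
POLA2: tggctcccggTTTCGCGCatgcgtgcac
PCNA: agcgtcagggGCGGGAAAaggcgtgcgt
TYMS: cgggacggccGCGGGAAAaggcgcgcgg
DTL: gtgacgtcagTTTGGCGCggagtttggc
UHRF1: ccgagttttcGCGGGAAAaaaatcagag
They lie at chr16:88803744-88803771 (CDT1, plus strand), chr7:100101389-100101416 (MCM7, minus), chr16:85688968-85688995 (GINS2, minus), chr11:65261899-65261926 (POLA2, plus), chr20:5126664-5126691 (PCNA, minus), chr18:657604-657631 (TYMS, plus), chr1:212035730-212035757 (DTL, plus) and chr19:4909477-4909504 (UHRF1, plus). The match in DTL begins 8 bases before the gene start and that in PCNA 59 bases before it. Genes with an E2F-type match had a median of −1.91 in PC3 (n = 20) and those without one −1.54 (n = 21), and in FaDu 1.32 and 0.96. In PC3 with miR-150-3p the medians were −0.88 with and −0.88 without such a match. Split by CCAAT, the medians under miR-99a-3p were −1.89 with (n = 23) and −1.62 without it (n = 18) in PC3, and 1.21 and 1.03 in FaDu. Both E2F-type groups ranged widely: with a match, from −3.80 (DTL) to −0.79 (LIG1) in PC3, and without one, from −3.39 (RRM2) to −0.95 (GMNN). POLA2, with an E2F-type match, had −2.38 in PC3 and 0.09 in FaDu. Whether these letters go with the size of the ratio was not tested. A match is a description of letters and does not show binding.

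The untransfected lines were compared by the Cy3 signal of the mock channels (4 PC3, 2 FaDu and 2 PANC-1), as log2 values less the 75th percentile of each array. The replication genes were lower in FaDu than in the other lines. The median log2 difference of PC3 minus FaDu was 0.64 over the 47 genes, against −0.10 over all genes, and that of FaDu minus PANC-1 was −0.51, against 0.07. With limma across 21496 genes (Benjamini-Hochberg adjusted p under 0.05), 29 of the 47 (61.7%) were higher in PC3 than in FaDu, against 36.7% of all genes, and 8 were higher in FaDu, against 41.1%. Higher in PANC-1 than in FaDu were 27 of the 47, against 35.3% of all genes, and 9 were higher in FaDu, against 37.2%. Between PC3 and PANC-1, 19 (40.4%) were higher in PC3, against 33.4% of all genes, and 12 (25.5%) higher in PANC-1, against 35.9%. These p-values measure the spread between channels, which may be technical. With alike channels averaged first, which leaves 1 residual degree of freedom, the counts were 24 and 3 for PC3 and FaDu, 16 and 4 for PANC-1 and FaDu, and 9 and 4 for PC3 and PANC-1, the higher line named first. The shares of all genes in that fit were 29.3% and 31.0%, 25.8% and 25.5%, and 24.1% and 24.4%. FaDu and PANC-1 have 1 value each there, so the PC3 pairs alone supply the spread.

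TYMS differed most between the mock lines. Its level was 6.64, 6.50, 6.37 and 6.39 in the PC3 channels, 2.81 and 2.92 in FaDu and 5.79 and 5.88 in PANC-1. The FaDu channels lay below all others, and PC3 minus FaDu was 3.61 (SE 0.09, limma adjusted p = 1.1e-07). RRM2 was also low in FaDu, at −1.39 and −0.95, against 1.11 to 1.34 in PC3 and 1.80 and 1.76 in PANC-1. The difference between PC3 and FaDu was 2.39 (SE 0.13, limma adjusted p = 2.89e-06). PCNA had a mean level of 4.23 ± 0.18 in PC3 (SD, n = 4), 2.35 ± 0.06 in FaDu (SD, n = 2) and 3.81 in PANC-1, with no overlap of FaDu and the others. POLA2 (1.84, limma adjusted p = 2.15e-06) and UHRF1 (1.55, limma adjusted p = 2.24e-05) were the other genes with the largest differences of PC3 over FaDu. Between FaDu and PANC-1 the largest were TYMS (−2.97), RRM2 (−2.95), POLA2 (−2.20), PCNA (−1.47) and RPA2 (−1.18), each with a limma adjusted p of at most 6.09e-05. All these p-values rest on the spread between channels, which may be technical.

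**Figure D4:**
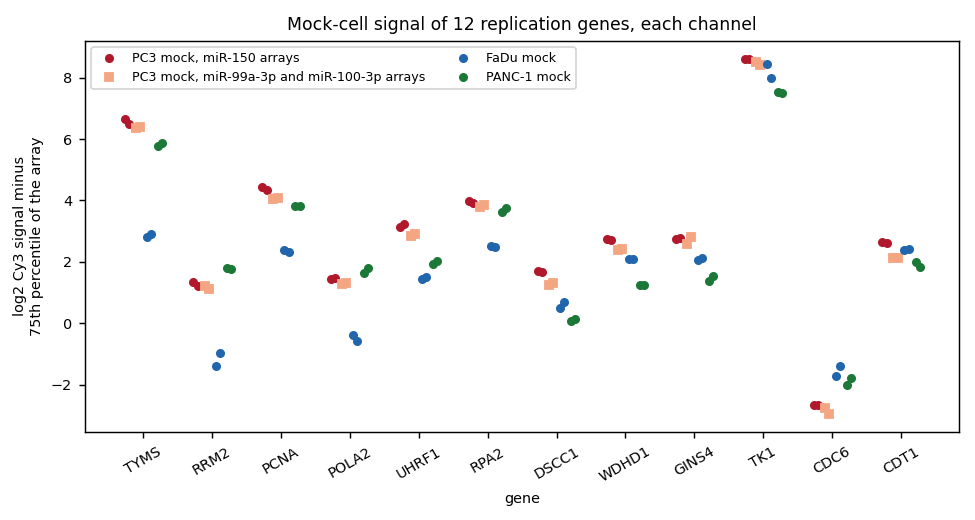
Mock-cell level (log2 Cy3 signal less the 75th percentile of the array, vertical axis) of 12 replication genes (horizontal axis) in each of the 8 mock channels, 1 point per channel. TYMS, RRM2, PCNA and POLA2 lie lower in both FaDu channels than in any PC3 or PANC-1 channel, and CDC6 lies lower in the PC3 channels.

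Between PC3 and PANC-1 the largest differences were those of DSCC1 (1.35, SE 0.15, limma adjusted p = 0.000189), WDHD1 (1.32), GINS4 (1.26), UHRF1 (1.05) and TK1 (1.02), all higher in PC3. Some replication genes went the other way. CDC6 was lower in PC3 than in FaDu by 1.21, the largest difference in that direction among the 47, and near background in PC3. MCM4 was higher in FaDu (2.86 and 2.84) than in PC3 (1.86 to 2.22) or PANC-1 (2.16 and 2.15).

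The replication genes also differed between the mock cells of the PC3 pairs of arrays. The miR-150 pair was higher for 45 of the 47 genes, against 48.5% of the 18981 genes above background in all 4 channels. The median difference was 0.27 on the log2 scale, with a range of −0.03 (LIG1) to 0.53 (POLE2), against −0.01 over those genes. A difference of 0.2 or more was found for 31 of the 47 (66.0%), against 14.4% of those genes. CDT1, for example, was at 2.64 and 2.63 in the miR-150 pair and at 2.11 and 2.14 in the other, and PRIM1 at 2.10 and 2.11 and at 1.62 and 1.57. None of the 47 differed by 2-fold, so the values of miR-99a-3p were larger than this difference and those of miR-150-5p and miR-100-3p were of its order. After normexp, loess and Aquantile, the median of miR-99a-3p was −1.59 against its own pair of PC3 mock channels and −1.77 against the other pair, with 43 of the 47 at or below −1 in each case.

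**Figure D5:**
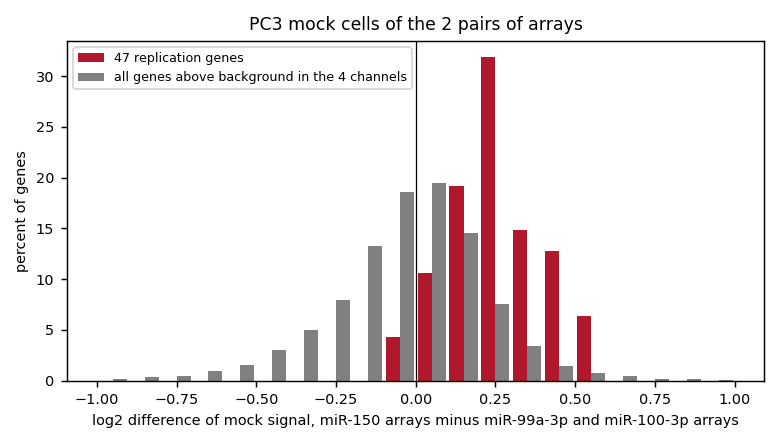
Share of genes (vertical axis, percent) by the log2 difference of mock signal between the PC3 miR-150 arrays and the PC3 miR-99a-3p and miR-100-3p arrays (horizontal axis), for the 47 replication genes (red) and for all genes above background in the 4 channels (grey). The replication genes centre on 0.27 and all genes on −0.01.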

How the data were processed

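The authors scanned each array with Agilent Feature Extraction 10.7.3.1 (design annotated on hg19), which removed background, balanced the dyes array by array, and gave the deposited intensities and the deposited log10 ratios (Cy5 over Cy3) with errors. The deposited series values equal these ratios. From them, log10 ratios were converted to log2, spots with outlier flags (81 to 178 of 60901 gene spots) were left out, spots of a probe were averaged and the brightest probe stood for a gene. A gene dim in 1 channel has a bound, the bright signal over the higher of the dim signal and the lowest signal well above background. Mock channels were compared with limma 3.58.1 in R 4.3.3. Python 3.11.15 did the rest.

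The 47 genes and all lists were chosen with earlier results of these data known. Named are the lowest and highest genes of each role measured in both channels, those opposing the median beyond their spot error, the 5 largest mock differences of each pair, and the 2 lowest and 2 highest of the other lists. Some prostate markers are not reported here. Every gene of the 47 could be named for the miR-99a-3p arrays, and genes named for a contrast between partners, and CDC6 and MCM4 among the mock lines, were picked after their values were seen. Alternatives were normexp (offset 50) with loess, the series values, other filters, probes and centring, other mock controls and, for the mock lines, leaving out each array.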

Additional observations from a re-analysis of the deposited data

Results flagged for a closer look

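The median log2 ratio of the 47 replication genes under miR-99a-3p was −1.84 in PC3 and 1.10 in FaDu cells. By their brightest probes, all 47 genes were below 0 in the first and above 0 in the second. With 1 array per line, the difference was not tested. Among the 4 PC3 mock channels, the level of ORC1 was 1 value apart from the other 3, at −1.25 on the miR-100-3p array against −0.85 to −0.79, a gap of 0.864 of the range. Chance sets about 1 in 20 such groups apart, and 47 genes were examined.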

How the results depend on the processing

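Most values kept their size. Of the medians of the 4 gene lists on the 8 arrays, 287 recomputed under planned settings stayed within the median spot error and 1 moved; of the counts of replication genes past 2-fold, 138 stayed within 1.5 times and 6 moved. Single log2 ratios stayed within their spot error in 3247 cases and moved in 141, and no ratio past 2-fold changed sign. With normexp and loess, 0 genes were at or above 1 under FaDu miR-99a-5p and 0 at or below −1 under PC3 miR-100-3p, which with the dimmest probe had 2. Against the mean mock channel of the line, 0 genes were at or above 1 under FaDu miR-99a-5p, 0 at or below −1 under PC3 miR-150-5p and 8 under PC3 miR-150-3p, and the E2F and S-phase median under PC3 miR-150-3p was −0.34. The next settings were chosen after seeing the data. Against the other pair of PC3 mock channels, the median was 0.029 under miR-150-5p and −0.60 under miR-150-3p, with 0 and 4 genes at or below −1, and 2 under miR-100-3p, which had 0 against its own pair after the same normalization. With alike mock channels averaged, 3 genes were higher in FaDu than in PC3, 9 in PC3 than in PANC-1, 4 in PANC-1 than in PC3, 4 in FaDu than in PANC-1 and 16 in PANC-1 than in FaDu. The cause was not tested, beyond the fewer samples of the averaged fit.

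Leaving out 1 mock channel gave 27 to 29 genes higher in PC3 than in FaDu, 7 to 8 in FaDu than in PC3, 14 to 23 in PC3 than in PANC-1, 9 to 12 in PANC-1 than in PC3, 8 to 9 in FaDu than in PANC-1 and 22 to 27 in PANC-1 than in FaDu. A lone remaining channel is assumed to vary like the other lines. DBF4, PC3 minus PANC-1, changed sign with the mean over probes (0.32, limma adjusted p = 0.0334). No paired analysis was possible because there is 1 array per condition and mock numbers pair nothing. Low signal limits the 5 genes dim in Cy5 under PC3 miR-99a-3p.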
